A study of Mus musculus with 9 samples.

Results

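Gasdermins are pore-forming proteins. In most members of the family a protease cuts the linker between the N-terminal and C-terminal domains, and the freed N-terminal domain oligomerises in the plasma membrane, which can end in the lytic cell death called pyroptosis. The gasdermins described here were the 6 rows of the deposited counts table whose gene name is Gsdmc, Gsdmc2, Gsdmc3, Gsdmc4, Gsdmd or Gsdme, out of 78239 genes in all. All 6 passed the filter on low counts that left 20610 genes for testing. Because Gsdmc, Gsdmc2, Gsdmc3 and Gsdmc4 are close copies of each other, they were read singly and as the sum of their counts.

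Polyadenylated RNA was counted in 9 libraries of sorted intestinal epithelial cells from Lgr5-2A-eGFP mice at an age of 8 weeks. Green fluorescent protein (GFP) is made from the Lgr5 locus in them and so marks cells that express this stem-cell receptor. With 3 libraries each, the groups were small intestine, colon GFP-negative and colon GFP-high, and all carry the reporter allele. At least 30000 sorted cells are given for each colon library and at least 50000 for each small intestinal one. A contrast of region therefore also holds this difference in input. No label states which GFP fraction the small intestinal libraries hold, so a contrast of them with a colon group may mix region with fraction. Nor do they say whether libraries came from separate animals or from pooled ones, so p-values measure only the spread between these samples, which may be technical.

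The libraries held 86621513 to 106673547 counts, and a level is given as CPM, the count scaled to the library's total and its TMM factor, a correction for composition. The epithelial marker Epcam stood between 3017 and 6207 CPM in all 9 libraries. Summed stromal markers (6 genes, 2 of them tested) were at most 6.10 CPM and summed endothelial markers (4 genes, 2 tested) at most 18.9 CPM, with Cdh5 at 0 counts in every library. Summed immune markers (15 genes) ranged from 25.0 to 7417 CPM. Lgr5, from whose locus GFP is made, ran opposite to the labels in 1 pair. Among libraries labelled colon GFP-high, replicate 2 had 0.958 CPM of it, where replicates 1 and 3 had 43.5 and 73.0. Among those labelled colon GFP-negative, replicate 2 had 62.1 CPM, where replicates 1 and 3 had 2.84 and 6.28. Summed stem cell markers (8 genes, Lgr5 among them) had the same order, with 1025, 247 and 1029 CPM in replicates 1, 2 and 3 labelled GFP-high and 293, 1101 and 243 CPM in those labelled GFP-negative. Directions between the colon fractions depend on those labels, so the main values of the gasdermins are given with and without these libraries. In small intestine Lgr5 was 57.9, 120 and 209 CPM.

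Gsdmd is the gasdermin cut by the inflammatory caspases downstream of inflammasomes, the cytosolic sensors of microbes and damage. Gsdme is another member of the family that can form pores once it is cut. The mouse has expanded the single Gsdmc gene of most mammals into several copies, which are best known in the gut epithelium as genes raised by the type 2 cytokines interleukin-4 and interleukin-13 during worm infection.

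In GENCODE M21 (GRCm38) the Gsdmc copies form a cluster of 136.3 kb on chromosome 15, from 63775968 to 63912297, all on the minus strand. Gsdmc (ENSMUSG00000079025.10 in the deposited table) lies at 63775968 to 63808759, Gsdmc2 (ENSMUSG00000056293.13) at 63824346 to 63845177, Gsdmc3 (ENSMUSG00000055827.14) at 63857724 to 63878558 and Gsdmc4 (ENSMUSG00000055748.13) at 63891264 to 63912297. Gsdmd (ENSMUSG00000022575.6) lies on the same chromosome at 75862327 to 75867408, plus strand. Gsdme (ENSMUSG00000029821.16) lies on chromosome 6 at 50188888 to 50263862, minus strand. All 6 are annotated as protein-coding.

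The coding sequences and whole transcripts show which copies can be told apart by reads. Gsdmc2 and Gsdmc3 are identical at 97.1% of their aligned coding positions, Gsdmc2 and Gsdmc4 at 93.5%, and Gsdmc3 and Gsdmc4 also at 93.5%. Gsdmc differs more, with 85.9% to 87.1% identity to the other 3 copies. Between the Gsdmc copies and Gsdmd the identity is 46.9% to 48.3%. Of the 50-base stretches of each copy's transcript, 83.6% in Gsdmc, 51.5% in Gsdmc2, 53.1% in Gsdmc3 and 61.0% in Gsdmc4 occur in no transcript of another gasdermin gene. Of the 100-base stretches these shares are 92.7%, 71.4%, 69.5% and 79.8% in the same order. For Gsdmd and Gsdme the share is 100% at both lengths. The levels of the single Gsdmc copies are therefore uncertain where the counting split or dropped shared reads, whose handling is not given in the sources used here. Their sum is less exposed to splitting but not to dropping.

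The 3 abundant copies are set side by side below over the 60-base coding stretch within 1 exon at which they differ most, at 15 positions. Capitals mark the positions where at least 1 copy differs. Each is on the minus strand of GRCm38, from the GENCODE M21 transcript with the longest coding sequence: Gsdmc2 at chr15:63826868-63826927 (exon 11), Gsdmc3 at chr15:63860298-63860357 (exon 9) and Gsdmc4 at chr15:63893815-63893874 (exon 9).
Gsdmc2: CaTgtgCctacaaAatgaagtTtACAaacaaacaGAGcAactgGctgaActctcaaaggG
Gsdmc3: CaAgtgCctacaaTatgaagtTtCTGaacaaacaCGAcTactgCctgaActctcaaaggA
Gsdmc4: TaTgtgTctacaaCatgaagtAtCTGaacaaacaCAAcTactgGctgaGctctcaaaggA
Elsewhere the coding sequences are far closer. Of 1449 aligned coding columns only 125 differ among the 3 copies, and the longest stretch shared by all 3 is 171 bases.

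The Gsdmc copies were the most variable gasdermins. Summed, they stood at 13.3, 1687 and 94.3 CPM across the libraries labelled GFP-high colon replicates 1, 2 and 3. In the libraries labelled colon GFP-negative replicates 1, 2 and 3 the sum was 521, 227 and 1563 CPM. In small intestine it was 66.1, 7.94 and 11.9 CPM. The highest library thus held 212 times the level of the lowest, and the colon alone spanned 127-fold. The 2 colon groups overlapped over most of their range, and the lowest colon library, GFP-high replicate 1, lay within the range of small intestine.

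**Figure D1:**
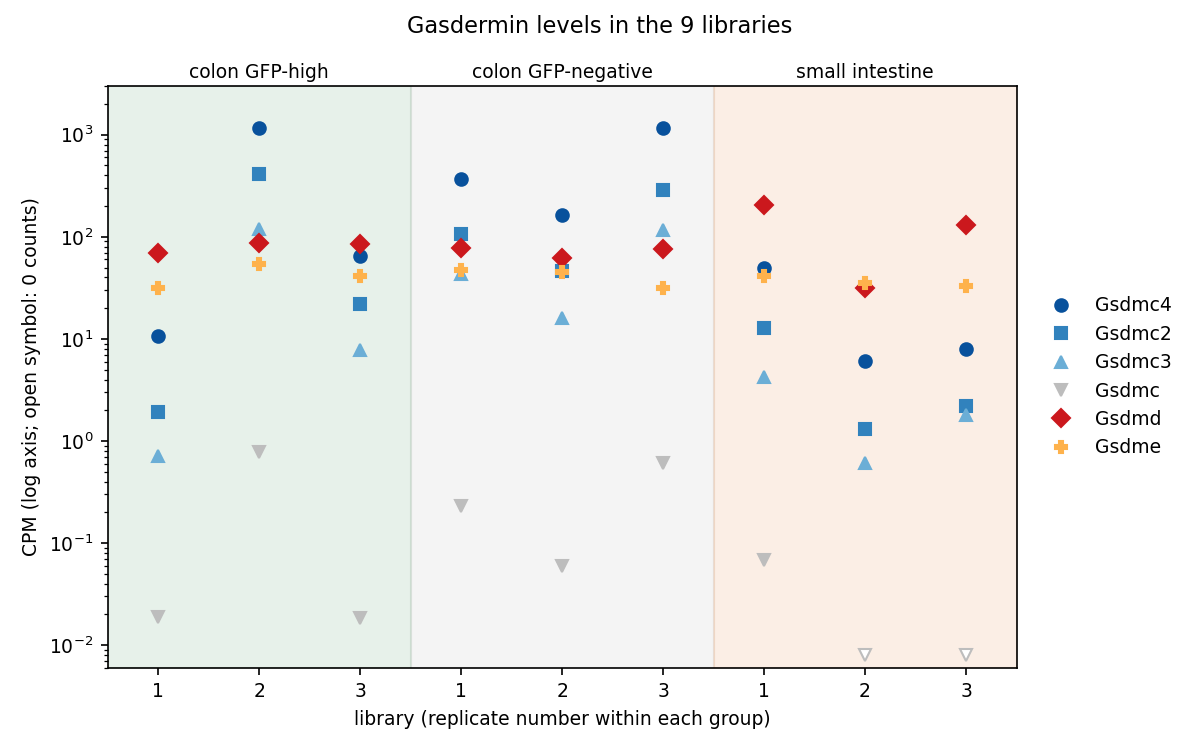
CPM of each gasdermin (log axis) in each of the 9 libraries, grouped by their labels, with open symbols for 0 counts. Gsdmc2, Gsdmc3 and Gsdmc4 are all highest in colon GFP-high replicate 2 and colon GFP-negative replicate 3 and span over 2 orders of magnitude, while Gsdmc stays at or below 0.773 CPM, Gsdme stays between 31.4 and 54.5 CPM in all libraries and Gsdmd leaves the range of 62.7 to 87.4 CPM only in small intestine.

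Gsdmc4 carried most of the reads. It had 10.7, 1151 and 64.6 CPM across the libraries labelled GFP-high colon, 371, 165 and 1161 CPM across those labelled GFP-negative colon and 49.0, 6.02 and 7.92 CPM in small intestine. Gsdmc2 had 1.94, 416 and 22.0 CPM across GFP-high colon, 107, 46.2 and 285 CPM across GFP-negative colon and 12.8, 1.31 and 2.22 CPM in small intestine. Gsdmc3 had 0.716, 119 and 7.71 CPM across GFP-high colon, 42.9, 16.2 and 117 CPM across GFP-negative colon and 4.26, 0.605 and 1.81 CPM in small intestine. In each of these 3 copies the same 2 libraries were highest, colon GFP-high replicate 2 and colon GFP-negative replicate 3, and small intestine replicate 1 was the highest of its group.

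Gsdmc itself, the gene at the far end of the cluster, was nearly silent. It had 2, 71 and 2 counts across the libraries labelled GFP-high colon, 18, 6 and 57 counts across those labelled GFP-negative colon and 5, 0 and 0 counts in small intestine. Its highest level was 0.773 CPM, and the 0 counts in small intestine replicates 2 and 3 allow up to 0.0293 and 0.0232 CPM, the levels of 3 counts. These floors cover counting error only. Its highest libraries were those of the other copies, colon GFP-high replicate 2 and colon GFP-negative replicate 3.

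Relative to its mean, the share of Gsdmc4 moved little while the sum moved over this range, and those of the rarer copies moved more. In percentage points Gsdmc4 had the largest SD. Gsdmc4 made up 72.3% ± 4.28 (SD, n = 9) of the summed counts, Gsdmc2 19.5% ± 3.15, Gsdmc3 8.07% ± 2.79 and Gsdmc 0.0470% ± 0.0476. The share of Gsdmc4 lay between 66.3% in small intestine replicate 3 and 79.9% in colon GFP-high replicate 1, the library with the lowest sum in the colon. Gsdmc3 was between 5.37% and 8.24% in 8 libraries and reached 15.1% in small intestine replicate 3. The share of Gsdmc ran from 0 to 0.143%, on at most 71 counts.

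**Figure D2:**
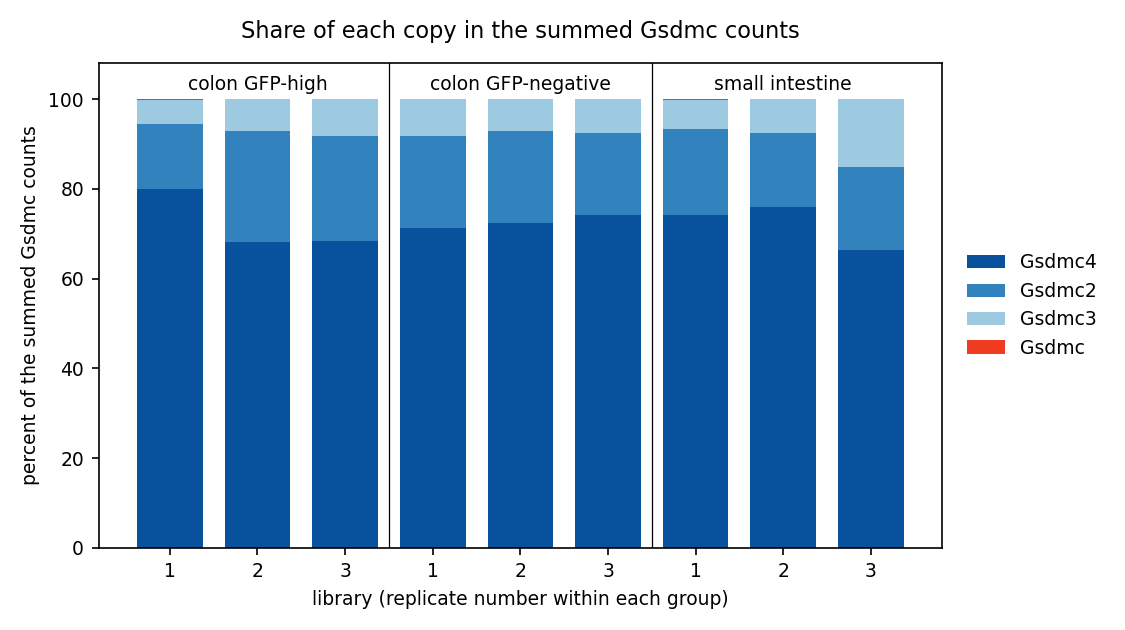
Percent of the summed Gsdmc counts taken by each copy in each of the 9 libraries, as stacked bars. Gsdmc4 takes 66.3% to 79.9% of the sum in every library, and the share of Gsdmc, at most 0.143%, is too thin to see.

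No share differed between groups beyond the spread of the libraries. For all colon against small intestine, Gsdmc4 was 72.4% ± 4.35 (SD, n = 6) against 72.1% ± 5.10 (n = 3; two-sided exact permutation p = 0.929). Gsdmc2 was 20.3% ± 3.62 against 18.1% ± 1.46 (exact permutation p = 0.405), and Gsdmc3 7.24% ± 1.04 against 9.73% ± 4.70 (exact permutation p = 0.429). Between the colon fractions the lowest exact permutation p was 0.4, for Gsdmc3, where 3 libraries against 3 cannot go below 0.10. Over the 8 share tests every Benjamini-Hochberg adjusted exact p was 1.

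Between the colon fractions the comparison asks whether the gasdermins go with the stem-cell reporter. By the labels, GFP-high colon held 598 ± 944 CPM (SD, n = 3) of the summed copies and GFP-negative colon 770 ± 702 CPM (n = 3). The log2 fold change was -0.37 ± 1.48 (SE; edgeR adjusted p = 1), well within the spread between libraries. None of the 6 gasdermins was called, and neither was any of the 20610 genes tested (0% called, 222 of them with an unadjusted p under 0.05). The call count was 1 in DESeq2 (0.00485%, 406 with an unadjusted p under 0.05) and 0 in limma-voom (227). The median log2 fold change was -0.08 over the 6 gasdermins and -0.02 over all genes tested.

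The direction for the Gsdmc copies rested on single libraries. The log2 fold change of the sum turned positive without colon GFP-high replicate 1 (0.21), without colon GFP-high replicate 3 (0.14) or without colon GFP-negative replicate 3 (0.68), and it fell to -3.84 without colon GFP-high replicate 2. Without the pair of colon replicate 2 libraries it was -4.28 in edgeR (adjusted p = 0.496), -4.66 in limma-voom (adjusted p = 0.451) and -4.33 in DESeq2 (adjusted p = 0.00284), with 2 libraries left in each colon group. There DESeq2 called 3.22% of the genes it tested, among them Gsdmc2 (adjusted p = 0.0137), Gsdmc3 (adjusted p = 0.00276) and Gsdmc4 (adjusted p = 0.00212), all lower in GFP-high. edgeR called none of them, and the pair was chosen for the level of Lgr5.

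Set beside Lgr5 in the same libraries, the 3 highest colon sums (521, 1563 and 1687 CPM) belonged to the libraries with 2.84, 6.28 and 0.958 CPM of Lgr5. The 3 lowest (13.3, 94.3 and 227 CPM) belonged to those with 43.5, 73.0 and 62.1 CPM of Lgr5. In small intestine all 3 libraries had Lgr5 of at least 57.9 CPM and sums of at most 66.1 CPM. These values are given as a description of the libraries, with no test.

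**Figure D3:**
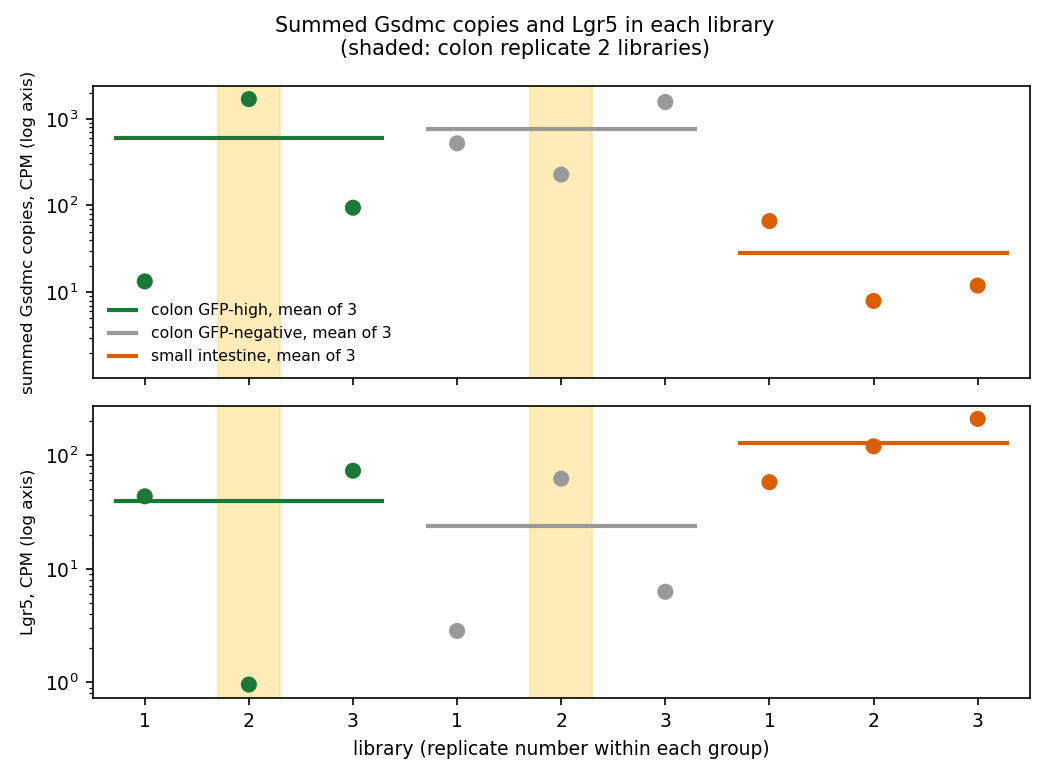
CPM of the summed Gsdmc copies (upper panel) and of Lgr5 (lower panel) in each library, both on log axes, with a line at each group's mean of 3 and the colon replicate 2 libraries shaded. In the shaded pair the library labelled GFP-high has 1687 CPM of the summed copies and 0.958 CPM of Lgr5, and the library labelled GFP-negative 227 and 62.1 CPM.

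Markers of stem, differentiated and non-epithelial cells moved across the same libraries. Summed goblet cell markers (7 genes, none at 0 in any library) spanned 6981 to 40765 CPM across the libraries labelled GFP-high colon, 13087 to 44085 CPM across GFP-negative colon and 1544 to 18975 CPM in small intestine. Summed enteroendocrine markers (7 genes, none at 0) reached 11854 CPM in colon GFP-high replicate 2, against 476 and 639 CPM in the other libraries of that label. In colon GFP-negative these markers spanned 150 to 3360 CPM, and in small intestine 377 to 538 CPM. Summed colonocyte markers (8 genes, with 1 at 0 in colon GFP-high replicate 1) were highest in the same 2 libraries as the Gsdmc copies, at 29527 CPM in colon GFP-high replicate 2 and 32787 CPM in colon GFP-negative replicate 3. The other colon libraries had 2491 to 17295 CPM of them and small intestine 1607 to 5112 CPM. Summed stem cell markers were lowest in those libraries, with 247 and 243 CPM, and stood between 699 and 1795 CPM in small intestine. Summed cycling cell markers (7 genes, none at 0) were also lowest there, with 602 and 455 CPM, against 982 to 1515 CPM in the other colon libraries and 1041 to 1840 CPM in small intestine. Summed immune markers spanned 55.7 to 758 CPM across GFP-high colon and 25.0 to 7417 CPM across GFP-negative colon. In small intestine replicates 1, 2 and 3 they were 2596, 2621 and 1105 CPM, of which Cd74 alone made up 2496, 2599 and 1054 CPM. Cd74 had 54.0, 407 and 53.1 CPM across GFP-high colon and 126, 21.6 and 4651 CPM across GFP-negative colon. For all colon against small intestine, edgeR estimates were above 0 for 13 of 15 immune markers, and 0 were called. Their median log2 fold change was 2.78, and 0.19 without the colon libraries numbered 2. Of the 15 immune markers, 8 had 0 counts in colon GFP-high replicate 1, 5 in colon GFP-negative replicate 2 and 2 each in colon GFP-high replicate 3 and small intestine replicate 2. Summed tuft cell markers (7 genes) did not follow the copies, with 126, 334 and 632 CPM across GFP-high colon and 126, 105 and 150 CPM across GFP-negative colon. In small intestine they were 130, 228 and 912 CPM. Summed Paneth cell markers (7 genes) were highest within colon in GFP-high replicate 2 (376 CPM) and GFP-negative replicate 3 (428 CPM). In small intestine they were 15813 to 25492 CPM. The part of these markers in the levels of the Gsdmc copies was not tested. In bulk libraries, fewer cells of a type and less RNA per cell cannot be told apart.

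For region, both colon groups together were compared with small intestine, which uses the same libraries whichever colon library is GFP-high. The log2 fold change weighs the labelled colon groups equally on the log scale, and the spread is taken within labelled groups. Its value and p therefore still depend on the labels. The summed Gsdmc copies were 684 ± 750 CPM (SD, n = 6) in colon and 28.7 ± 32.5 CPM (n = 3) in small intestine, a log2 fold change of 4.57 ± 1.64 (SE). The unadjusted edgeR p was 0.0218 and the adjusted p 0.128, so the sum was not called, against 8.76% of all genes tested that were called (5.02% higher in colon and 3.74% lower). In 5 of 6 colon libraries the sum was above all small intestinal libraries. DESeq2, which called 17.6% of the genes, called the sum higher in colon (log2 fold change 4.62, adjusted p = 0.00280).

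The single copies gave like values. The log2 fold change of all colon against small intestine was 4.52 ± 1.63 (SE) for Gsdmc4 (edgeR adjusted p = 0.128) and 4.75 ± 1.73 for Gsdmc2 (adjusted p = 0.131). It was 4.49 ± 1.59 for Gsdmc3 (adjusted p = 0.123) and 3.69 ± 1.94 for Gsdmc (adjusted p = 0.279). None of the 6 gasdermins was called in edgeR. Of their estimates 5 of 6 were above 0, beside 10304 of 20610 over all genes tested. Their median log2 fold change was 4.09, beside 0.00 over all genes tested. The 4 Gsdmc copies share reads, so this count and this median mostly repeat the value of the sum. The other members, Gsdmd and Gsdme, had -0.69 and 0.21. Leaving out 1 library at a time moved the sum's value between 2.83 (without colon GFP-high replicate 2) and 6.09 (without small intestine replicate 1), and the adjusted p between 0.0764 and 0.354. Without the pair of colon replicate 2 libraries it was 3.05 in edgeR (adjusted p = 0.149) and 3.09 in DESeq2 (adjusted p = 0.00214), which called 13.1% of the genes.

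Taken by fraction, the sum in colon GFP-negative (227 to 1563 CPM) did not overlap that in small intestine (7.94 to 66.1 CPM), with a log2 fold change of 4.75 ± 1.72 (SE; edgeR adjusted p = 0.163). Colon GFP-high overlapped small intestine, with 4.38 ± 1.69 (adjusted p = 0.190). Both contrasts share the small intestinal libraries with each other, and edgeR called 5.64% (3.95% higher in colon) and 5.63% (3.91% higher) of all genes in them. DESeq2, calling 13.9% and 13.2% of the genes, called the sum higher in colon in both (4.81, adjusted p = 0.0103, and 4.43, adjusted p = 0.0229). Without the pair of colon replicate 2 libraries, where DESeq2 called 14.5% and 8.63%, it called the first (5.25, adjusted p = 2.22e-06) and not the second (0.92, adjusted p = 0.735). Without colon GFP-high replicate 2 the second value was 0.91, and the first was at least 3.71 whichever library was left out.

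**Figure D4:**
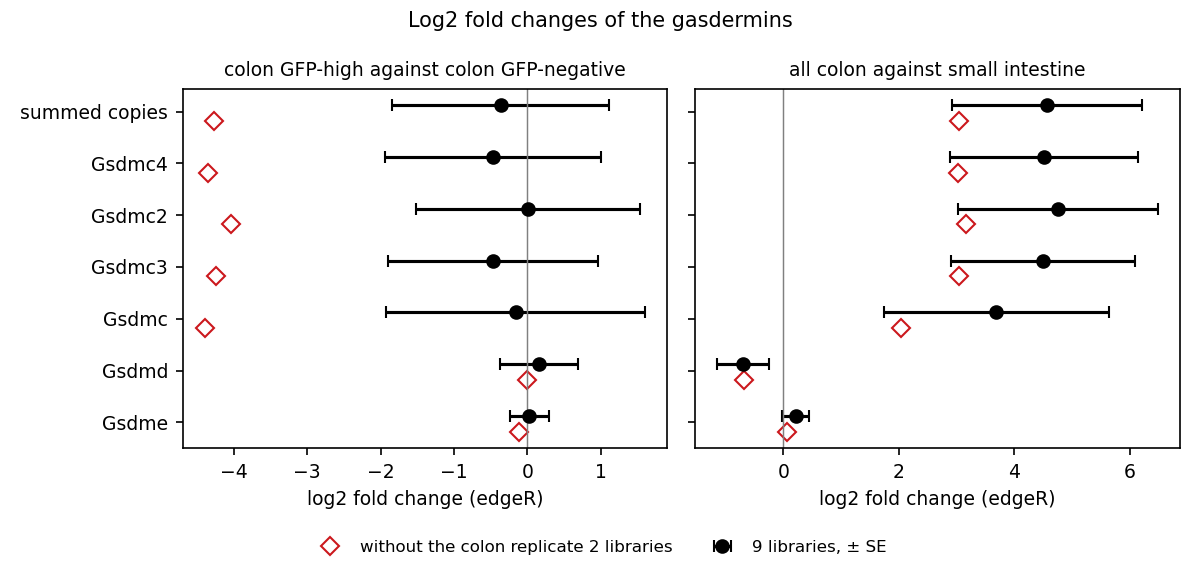
Log2 fold change (edgeR) of the summed copies and of each gasdermin, with bars of 1 SE over 9 libraries, beside the estimate without the colon replicate 2 libraries (open diamonds). Between the colon fractions the sum goes from -0.37 to -4.28 when the pair is left out, and against small intestine from 4.57 to 3.05.

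Gsdmd was present in every library and varied mainly within small intestine. It had 68.7, 87.4 and 85.3 CPM across the libraries labelled GFP-high colon, 78.2, 62.7 and 75.8 CPM across GFP-negative colon and 207, 31.3 and 132 CPM in small intestine. The 6 colon libraries thus lay within 1.39-fold of each other, and small intestine held both the highest and the lowest library, 6.62-fold apart. GFP-high colon averaged 80.5 ± 10.3 CPM (SD, n = 3) of Gsdmd and GFP-negative colon 72.2 ± 8.33 CPM (n = 3), which gave a log2 fold change of 0.16 ± 0.53 (SE; edgeR adjusted p = 1). Without the colon libraries numbered 2 it was 0.0006. For all colon against small intestine it was 76.3 ± 9.51 CPM (n = 6) against 123 ± 88.2 CPM (n = 3), a log2 fold change of -0.69 ± 0.45 (edgeR adjusted p = 0.381). It was called lower in colon only without small intestine replicate 2 (-1.15, edgeR adjusted p = 0.0285). Without small intestine replicate 1 the value was -0.10.

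The small intestinal libraries also differed in their levels of markers of differentiated enterocytes, the absorptive cells of the villus. The 8 enterocyte markers summed to 33716, 537 and 7464 CPM in small intestine replicates 1, 2 and 3, the same order as Gsdmd, and to 79.1 to 239 CPM in the colon libraries. Alpi, the brush-border alkaline phosphatase, had 1852, 20.6 and 696 CPM there, and Krt20, a keratin of differentiated cells, had 2364, 55.9 and 1007 CPM. The part of enterocyte content in the level of Gsdmd was not tested.

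Gsdme was the steadiest gasdermin. It had 31.4, 54.5 and 41.4 CPM across the libraries labelled GFP-high colon, 47.8, 45.7 and 31.4 CPM across GFP-negative colon and 40.9, 35.3 and 32.6 CPM in small intestine, a range of 1.74-fold over 9 libraries. The groups overlapped throughout. Its log2 fold change was 0.03 ± 0.27 (SE) between the colon fractions (edgeR adjusted p = 1) and 0.21 ± 0.24 for all colon against small intestine (edgeR adjusted p = 0.622). Without the colon libraries numbered 2 the first was -0.12 (edgeR adjusted p = 0.967).

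**Figure D5:**
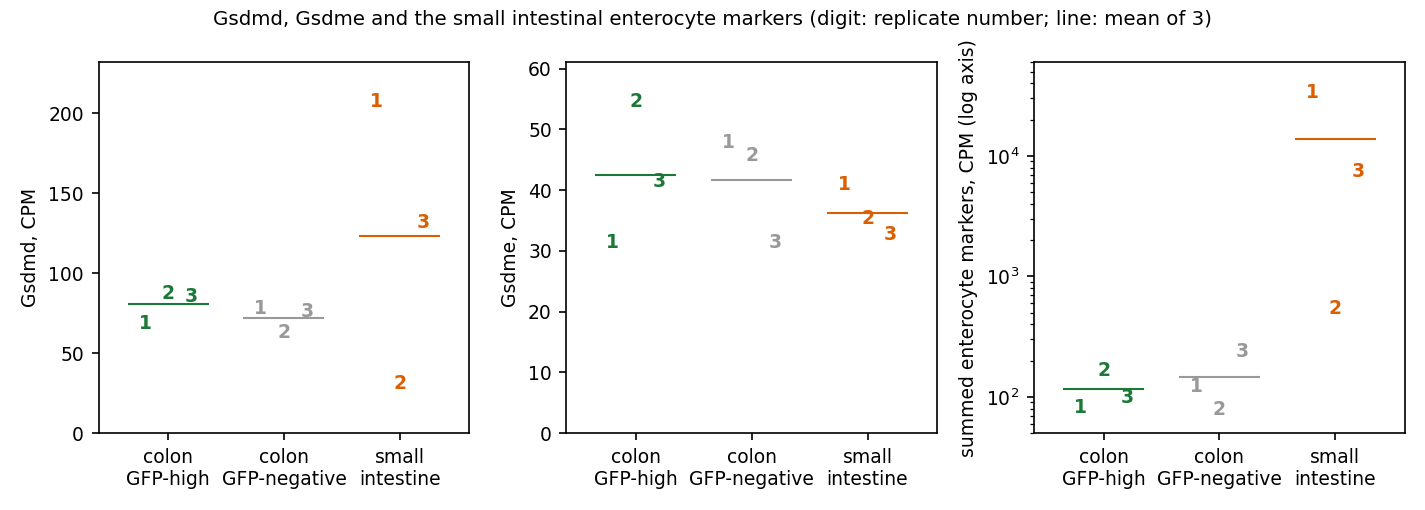
CPM of Gsdmd and Gsdme and the summed CPM of 8 small intestinal enterocyte markers (log axis) by group, each library drawn as its replicate number with a line at the mean of 3. Gsdmd and the enterocyte markers both order the small intestinal libraries as replicate 1, 3, 2, with Gsdmd at 207, 132 and 31.3 CPM, while Gsdme stays between 32.6 and 40.9 CPM there.

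Levels of different genes are compared per kb of the deposited gene length. In the libraries labelled colon GFP-negative the order was Gsdmc4 with 271 ± 252 CPM per kb (SD, n = 3), Gsdmc2 with 63.0 ± 53.5, Gsdmd with 30.4 ± 3.50, Gsdmc3 with 25.2 ± 22.4, Gsdme with 3.27 ± 0.70 and Gsdmc with 0.125 ± 0.117. In colon GFP-high the order was the same over all 3 libraries, with 196 ± 308 CPM per kb for Gsdmc4 and 33.9 ± 4.32 for Gsdmd, but it rested on replicate 2. Over its replicates 1 and 3 Gsdmd led with 32.4 CPM per kb (28.9 and 35.9), and Gsdmc4 followed with 5.10 and 30.9. Gsdmc2 then had 5.16, Gsdme 2.86 and Gsdmc3 1.81 CPM per kb. Over replicates 1 and 3 of colon GFP-negative Gsdmc4 had 367 and Gsdmc2 84.6 CPM per kb, and Gsdmc3 (34.3) changed places with Gsdmd (32.4). In small intestine Gsdmd led with 51.9 ± 37.1 CPM per kb, followed by Gsdmc4 with 10.1 ± 11.6, Gsdme with 2.85 ± 0.33, Gsdmc2 with 2.35 ± 2.75, Gsdmc3 with 0.956 ± 0.801 and Gsdmc with 0.00950 ± 0.0165. Over all 3 libraries of each group the intervals of 1 SD of neighbours in the order overlapped, except those of Gsdmc and the gene above it. The deposited length of Gsdme is 12742 bases, against 2502 bases for its longest-coding GENCODE M21 transcript, so its level per kb would be higher on that length.

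Relative to Gsdmd, in plain CPM, the summed copies ranged from 0.0905 times its level in small intestine replicate 3 to 20.6 times in colon GFP-negative replicate 3. The ratio was 0.194, 19.3 and 1.10 across the libraries labelled GFP-high colon and 6.66, 3.62 and 20.6 across those labelled GFP-negative colon. In small intestine it was 0.319, 0.254 and 0.0905, so all 3 small intestinal libraries and colon GFP-high replicate 1 held fewer Gsdmc than Gsdmd reads.

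Across the 9 libraries the gasdermins fell into separate patterns. The log2 levels of Gsdmc4 and Gsdmc2 had a Pearson correlation of 0.997, Gsdmc2 and Gsdmc3 one of 0.993, and Gsdmc4 and Gsdmc3 one of 0.989. Gsdmd had correlations of 0.05 to 0.12 with the Gsdmc copies and 0.10 with Gsdme, and Gsdme 0.37 to 0.59 with the copies. Near-identical copies share reads, and the 3 groups set part of any such value, so these describe the libraries and carry no test.

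Of 10261 other genes averaging at least 5 CPM, the one whose log2(CPM + 0.5) was most like that of the summed copies over the 9 libraries was Gsdmcl2 (Pearson correlation 0.986). It is listed as a long noncoding RNA, and had 0.983, 54.0 and 4.58 CPM across GFP-high colon, 17.3, 9.05 and 79.4 CPM across GFP-negative colon and 1.59, 0.137 and 0.279 CPM in small intestine. That is 1.72% to 7.38% of the summed copies. It was not called in all colon against small intestine (log2 fold change 5.32 ± 1.64 SE, edgeR adjusted p = 0.0840). Without the pair of colon replicate 2 libraries DESeq2 called it higher in all colon (4.16, adjusted p = 3.14e-05), with 13.1% of the genes called. Between the fractions DESeq2 then called it lower in GFP-high (-4.18, adjusted p = 0.00911), with 3.22% called. Without the pair edgeR called it in neither contrast. The deposited table holds this name on a pair of identifiers. The one with reads (ENSMUSG00000121311.2) is not in GENCODE M21. The other (ENSMUSG00000093867.9) has 0 counts in all 9 libraries and is annotated there as a pseudogene between Gsdmc3 and Gsdmc4, from 63880707 to 63890512, on the plus strand, opposite to the copies. Whether the counting used strand is not given in the sources used here, so reads of the copies and of an antisense or overlapping partner cannot be told apart.

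The next genes most like the sum were Tmem106b, a lysosomal membrane protein (correlation 0.981), Trappc2, a subunit of a vesicle-tethering complex (0.965), Selenbp2, a selenium-binding protein (0.965), and AA467197 (0.964). Tmem106b moved far less, from 10.3 to 26.5 CPM, and AA467197 spanned 4.62 CPM in small intestine replicate 2 to 275 CPM in colon GFP-negative replicate 3. Most like Gsdmd were Por, the reductase that supplies electrons to cytochrome P450 enzymes (0.946), Fam234a (0.931), Eci3, an enzyme of fatty acid oxidation (0.922), Srxn1, a sulfiredoxin that repairs oxidised peroxiredoxins (0.912), and Tlcd2 (0.910). Por had 267, 93.1 and 179 CPM in small intestine, the same order as Gsdmd. Most like Gsdme were Morf4l2 (0.945), D6Wsu163e (0.944), Gss, the glutathione synthetase (0.937), Gdi2 (0.932) and Nab1 (0.928). Morf4l2, the first of these, stood between 223 and 418 CPM. With a pseudocount of 2 in place of 0.5, 4 of 5 genes stayed among the 5 most like the sum, and likewise for Gsdmd and for Gsdme.

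Cyrib and Asap1, the nearest flanking genes that were tested, moved far less than the copies. Cyrib (Fam49b in GENCODE M21), whose nearer edge lies 16.8 kb above Gsdmc4, stood between 48.5 and 155 CPM in the 9 libraries. Its colon range was 3.19-fold and its correlation with the summed copies 0.78. Asap1, the next tested gene, stood between 5.05 and 20.1 CPM (correlation 0.73). Adcy8, 785 kb above, had a wide range from few reads, with 0 counts in colon GFP-high replicate 1 and colon GFP-negative replicate 3, 2.65 CPM in colon GFP-negative replicate 2 and up to 3.82 CPM in small intestine (correlation -0.48). On the other side the 5 nearest tested genes are 794 kb to 2922 kb away, and among them Myc had its lowest level, 73.3 CPM, in colon GFP-negative replicate 3 and 86.2 CPM in colon GFP-high replicate 2 (correlation -0.93). None of the 10 flanking genes was called in either main contrast. No tested GENCODE M21 gene lies inside the cluster other than the copies themselves.

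Promoter sequence was at hand for 2 of the 6 gasdermins in the RefSeq table for GRCm38.p6, and of the Gsdmc copies for Gsdmc3 alone. It is printed since the copies move together. The 250 bases before its start, at chr15:63878559-63878808 on the minus strand, read as follows, with capitals for motif matches.
Gsdmc3: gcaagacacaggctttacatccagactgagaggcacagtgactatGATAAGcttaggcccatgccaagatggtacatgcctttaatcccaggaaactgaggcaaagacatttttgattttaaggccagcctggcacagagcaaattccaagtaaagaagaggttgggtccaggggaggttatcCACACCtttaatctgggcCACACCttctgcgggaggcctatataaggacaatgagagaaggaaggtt
Of the motifs searched on both strands over the 300 bases of the table's window, GATAAG was found once, 205 bases before the start, and CACACC at 67 and 49 bases before it. GATAAG is in 7.44% and CACACC in 19.0% of all 32851 promoters of this length. TTC followed after any 4 bases by GAA (6.95% of promoters), the same with any 3 bases (8.30%), TTTATTG (4.60%), TTTATGG (2.75%) and CAAAGTCCA (0.475%) were not found in it. A match describes these letters and is not a binding site.

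Of the other gasdermin genes, 7 names on 9 rows, 3 rows were tested. Gsdma, best known from skin and stomach, had 0, 70.7 and 0.717 CPM across the libraries labelled GFP-high colon, 17.0, 0.0997 and 20.4 CPM across GFP-negative colon and 2.62, 0.518 and 2.01 CPM in small intestine. Its highest library was colon GFP-high replicate 2, like that of the Gsdmc sum, and its log2 fold change for all colon against small intestine was 3.33 ± 2.22 (SE; edgeR adjusted p = 0.393). Without the pair of colon replicate 2 libraries DESeq2 called Gsdma lower in GFP-high than in GFP-negative colon (-5.76, adjusted p = 0.00129). DESeq2 called 3.22% of the genes there, and edgeR did not call Gsdma. Gsdma2 was lower in all colon from very few reads, with at most 0.179 CPM in any colon library and 0.494, 2.70 and 1.32 CPM in the small intestinal ones. Its log2 fold change was -5.26 ± 1.38 (SE; edgeR adjusted p = 0.0492), and that call was lost in 7 of the 9 fits that left out 1 library. Gsdma3 had at most 0.0653 CPM. These genes lie side by side on chromosome 11 and are close paralogs, so their reads may be split between them.

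Of 9 genes for proteases that cut gasdermins, 7 were tested and 0 were called in either main contrast, with a median log2 fold change of 0.08 in all colon against small intestine. In that contrast 5.02% of all 20610 genes tested were called higher in colon and 3.74% lower, with a median of 0.00. The same shares stand beside each list below. With 7 to 17 genes tested in a list, at most 1 call in a direction is near them. Casp1, the inflammasome caspase that cuts Gsdmd, was 178 ± 29.7 CPM (SD, n = 6) in colon and 190 ± 117 CPM (n = 3) in small intestine. Its highest library, small intestine replicate 1 with 323 CPM, was also the one with most Gsdmd. Casp8, a caspase of death receptors, was 175 ± 24.3 and 165 ± 16.3 CPM. Casp4, the cytosolic lipopolysaccharide sensor, was 20.4 ± 2.77 and 18.4 ± 2.89 CPM. The granzymes Gzma and Gzmb were highest in colon GFP-negative replicate 3, with 275 and 214 CPM, the library with the highest summed immune markers.

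Of 16 inflammasome sensors and adaptors, 12 were tested, 1 was higher in all colon and 0 were lower (median log2 fold change -0.20). Aim2, the cytosolic DNA sensor, was 13.1 ± 4.67 CPM (SD, n = 6) in colon and 1.14 ± 0.338 CPM (n = 3) in small intestine, a log2 fold change of 3.50 ± 0.45 (SE; edgeR adjusted p = 0.00260). All 6 colon libraries (5.98 to 18.1 CPM) were above all 3 small intestinal ones (0.759 to 1.40 CPM). Nlrp6, a sensor best known in intestinal epithelium, was 149 ± 76.6 and 390 ± 47.0 CPM, without overlap (log2 fold change -1.40 ± 0.43, edgeR adjusted p = 0.0801). Without the pair of colon replicate 2 libraries Nlrp6 was called lower in all colon (-1.55, edgeR adjusted p = 0.0201). Pycard, the adaptor ASC, was 193 ± 56.1 and 258 ± 165 CPM. Nlrp3 had at most 0.218 CPM in any library.

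Among 12 genes of pyroptotic cargo, membrane rupture and repair, 11 were tested, with 1 higher and 1 lower in all colon (median log2 fold change -0.18). Ninj1, which ruptures the plasma membrane after gasdermin pores form, was 125 ± 22.1 CPM (SD, n = 6) in colon and 69.9 ± 17.4 CPM (n = 3) in small intestine, a log2 fold change of 0.83 ± 0.22 (SE; edgeR adjusted p = 0.0483). The call held in only 7 of 21 alternatives. Zdhhc9, a palmitoyltransferase, was 57.2 ± 8.28 and 119 ± 35.1 CPM (log2 fold change -1.05 ± 0.22, edgeR adjusted p = 0.0201), a call that held in 12 of 21. The alarmin Hmgb1 was 1516 ± 552 and 1865 ± 656 CPM, and Chmp3, of the membrane-repairing ESCRT-III complex, 190 ± 38.8 and 149 ± 38.9 CPM. Il18, a cytokine processed by caspase-1, ran from 15.9 to 152 CPM in colon and from 4.63 to 122 CPM in small intestine.

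Interferon signalling is known to raise Gsdmd and the proteins that bring inflammatory caspases to bacteria. Of 11 such genes, 9 were tested, 0 were higher and 1 was lower in all colon (median log2 fold change -0.17). Irf1, a transcription factor of the interferon response, was 106 ± 18.7 CPM (SD, n = 6) in colon and 227 ± 33.9 CPM (n = 3) in small intestine, a log2 fold change of -1.11 ± 0.20 (SE; edgeR adjusted p = 0.0101). The receptor genes Ifngr1 and Ifngr2 were 251 ± 44.7 and 168 ± 21.5 CPM in colon and 282 ± 37.5 and 267 ± 60.2 CPM in small intestine, and neither was called.

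Of 12 genes of the type 2 cytokine route, 11 were tested, with 1 higher and 1 lower in all colon. The median log2 fold change was 0.88, beside 0.00 over all genes tested. Stat6, the transcription factor that interleukin-4 and interleukin-13 activate, was 55.9 ± 6.21 CPM (SD, n = 6) in colon and 192 ± 26.3 CPM (n = 3) in small intestine, a log2 fold change of -1.78 ± 0.17 (SE; edgeR adjusted p = 0.000759). Retnlb, a goblet cell effector of the type 2 response, was 1333 ± 1303 and 1.35 ± 0.384 CPM (log2 fold change 9.93 ± 1.69, edgeR adjusted p = 0.00822). Within the colon Retnlb did not follow the copies: its lowest colon level, 145 CPM, was in GFP-negative replicate 1, with 521 CPM of the summed copies. Clca1, a goblet cell protein, had 14.5, 18104 and 1110 CPM across GFP-high colon, 6653, 1185 and 8197 CPM across GFP-negative colon and 2242, 146 and 533 CPM in small intestine. Within each group this is the same order of libraries as for the summed Gsdmc copies, though small intestine overlapped colon. Ang4, an antimicrobial ribonuclease, had 8.88, 4801 and 143 CPM across GFP-high colon, 329, 609 and 3119 CPM across GFP-negative colon and 391 to 640 CPM in small intestine. The receptor gene Il13ra1 was between 40.1 and 152 CPM, Il4ra between 9.25 and 27.8 CPM, and Il13ra2 had 0 counts in all 9 libraries.

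Methylation of adenosine in messenger RNA has been tied to Gsdmc transcripts in the mouse gut. Of 18 writers, erasers and readers of this mark, 17 were tested and 0 were called in either main contrast, with a median log2 fold change of -0.47 in all colon against small intestine and 1 of 17 estimates above 0. Over all genes tested the median was 0.00, with 10304 of 20610 estimates above 0. The most abundant, the readers Ythdf2 and Ythdf1, were 88.2 ± 20.6 and 48.8 ± 10.6 CPM (SD, n = 6) in colon and 102 ± 33.5 and 74.8 ± 14.3 CPM (n = 3) in small intestine.

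Of the 7 genes called here (Gsdma2, Aim2, Ninj1, Zdhhc9, Irf1, Stat6 and Retnlb), Irf1 (edgeR adjusted p = 0.0511), Ninj1 (0.132) and Zdhhc9 (0.0948) missed the threshold without the colon libraries numbered 2. A block on the tag that the library names carry, which left 17 calls among all genes, ended all 7. Their direction was the same in every alternative run. In the tag block colon GFP-negative replicate 3 and small intestine replicate 1 share their tag with no other library. They add nothing to its group differences, and few libraries are left to measure the spread. The calls lost there can come from this alone, and an effect of the tag was not tested.

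In the colon fractions as labelled, none of the genes of these 6 pathway lists was called, as no gene was in edgeR. Their median log2 fold changes were -0.13 for the proteases, -0.35 for the sensors, -0.14 for the cargo and rupture genes, -0.17 for the interferon route, -0.12 for the type 2 route and -0.09 for the RNA methylation genes, beside -0.02 for all genes tested. Without the colon libraries numbered 2, edgeR again called none of them (0 of 21770 genes, 1577 with an unadjusted p under 0.05), and the medians were -0.38, -0.53, -0.13, -0.43, -0.88 and 0.31 in the same order, beside 0.00 for all genes tested, so that of the RNA methylation genes turned sign. DESeq2, which then called 3.22% of the genes, called 1 gene of the 6 lists higher in GFP-high, Nlrp6 (log2 fold change 1.34, adjusted p = 0.0281). It called 6 lower: Gzma, Gzmb, Il1b, Gbp2, Il2rg and Ang4. In that fit 13 of 15 immune markers, Gzma among them, were also called lower, and their part in these calls was not tested.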

How the data were processed

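Polyadenylated RNA was counted in 9 libraries, grouped by their labels. The submitters' processing notes name mm10, STAR, Subread, featureCounts and edgeR without versions. How the counting used strand and multimapping reads, and its annotation, is not given in the sources used here. Per the file headers, the deposited values are raw read counts, log2 CPM, log2 RPKM, log2 TPM, each library's total and its TMM factor (a ratio).

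Deposited counts alone were tested, with edgeR 4.0.16 in R 4.3.3: filterByExpr by group, deposited totals and factors, 1 quasi-likelihood fit of all 9 libraries, two-sided tests, Benjamini-Hochberg adjustment over all genes tested, and calls at an adjusted p under 0.05. In a second fit the summed copies replaced their 4 rows. The SE of an edgeR log2 fold change was derived from its test, as the absolute change over the square root of the F statistic. Alternatives used DESeq2 1.42.0, limma 3.58.1, other scalings, filters and blocks, and left out libraries. Spread between libraries, more than depth, set the precision (common coefficient of variation 0.726), and no replicates were duplicates (chi-square per gene at least 327.8). MAFFT 7.526 aligned coding sequences. The fit was tested on simulated data.

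Named genes were the 6 gasdermins, Lgr5, list members called (at most 6 a list), the 2 most abundant of each list, flanking genes and the 5 most like each pattern. Casp4, Il18, Il1b, Il2rg, Gbp2, Gzma, Gzmb, Nlrp3, Il13ra1, Il13ra2, Il4ra, Alpi, Krt20, Cdh5 and Gsdma3 were added after their values were seen. The members and lists were chosen with earlier results of these data known. The values of 1 listed gene are not reported here.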

Additional observations from a re-analysis of the deposited data

How the results depend on the processing

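Log2 fold changes are edgeR's unless another tool is named. DESeq2 called 1 gene between the colon fractions, 3618 in all colon against small intestine, 2713 in colon GFP-high and 2870 in colon GFP-negative against small intestine. It called the summed copies in the last 3 (4.62, 4.43 and 4.81). Without the pair of colon replicate 2 libraries edgeR called 1082 genes in all colon and 504 in colon GFP-high against small intestine. DESeq2 and limma-voom without that pair were added after seeing the data. So run, DESeq2 called 700, 2845, 1879 and 3148 genes in the 4 contrasts, and limma-voom 2 between the colon fractions and 605 in colon GFP-high against small intestine. The sum was then called at -4.33 between the fractions, 3.09 in all colon and 5.25 in colon GFP-negative against small intestine by DESeq2, and at 5.68 in the last by limma-voom.

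Between the colon fractions no single gasdermin kept its sign throughout, and the cause was not tested. Gsdmc2 was -0.0081 in DESeq2, -0.11 with total-count scaling, -2.14 in limma-voom and -0.0093 with TMM recomputed on the genes tested (added after seeing the data). Without the pair it was -4.03, -4.09 in DESeq2 and -4.73 in limma-voom. Gsdmd was then -0.0446 in DESeq2 and -0.0076 in limma-voom, and Gsdme -0.12, -0.16 in DESeq2 and -0.10 in limma-voom. Gsdmc in colon GFP-high against small intestine was then -0.16, and -0.19 in DESeq2. The Gsdmc2 share differed by -0.43 and the Gsdmc4 share by 1.47 percentage points between the fractions.

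No pairing of the libraries is given. Deviations of same-numbered libraries from their group means correlated between -0.604 and 0.304. The lowest value is that of the 2 colon replicate 2 libraries. Their Lgr5 ran opposite to the labels that set the group means, so this value cannot show whether they pair. These 2 libraries share a tag. Colon GFP-high replicate 1 shares its tag with colon GFP-negative replicate 1 (-0.086) and small intestine replicate 2 (0.275). With a replicate block, 887 genes were called in all colon, 508 in colon GFP-high and 528 in colon GFP-negative against small intestine. The summed copies were then -1.15 between the fractions and 4.30 in all colon against small intestine (edgeR adjusted p = 0.344), and Gsdmc2 was -0.82 between the fractions. A block on the tag in the library names called 17, 18 and 0 genes in the same 3 contrasts, with Gsdmd at 0.42, 0.37 and 0.47, and gave -1.80 for Gsdmc2, -0.10 for Gsdmd and -0.13 for Gsdme between the fractions. These values rest on few libraries, as colon GFP-negative replicate 3 and small intestine replicate 1 share their tag with none.

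Leaving out 1 library at a time gave -3.84 to 0.68 for the sum between the fractions, -3.91 to 0.88 for Gsdmc, -3.61 to 0.94 for Gsdmc2, -3.80 to 0.52 for Gsdmc3, -3.91 to 0.61 for Gsdmc4 and -0.19 to 0.21 for Gsdme. Gsdmc in colon GFP-high against small intestine ran from -0.16 to 7.77. Calls ran from 968 to 1778 in all colon, 566 to 1373 in colon GFP-high and 530 to 1083 in colon GFP-negative against small intestine. Share differences between the fractions ran from -0.0040 to 0.0578 percentage points for Gsdmc, -0.762 to 4.30 for Gsdmc2, -1.40 to 0.0019 for Gsdmc3 and -4.30 to 1.55 for Gsdmc4. In all colon against small intestine they ran from -4.14 to 0.200 for Gsdmc3 and -2.57 to 2.21 for Gsdmc4. A fit of only the libraries compared was not run for all colon against small intestine, which uses every library, and Gsdmc and Gsdma2 were not tested with a minimum of 1 CPM in 3 libraries.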
